A study of Homo sapiens with 6 samples.

Results

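The genes described here encode the machinery of transcription: the subunits of RNA polymerases I, II and III (symbols POLR1 to POLR3), their general transcription factors (GTF2, GTF3 and TAF), the Mediator subunits (MED) and the Integrator subunits (INTS). They were chosen by symbol alone, and an event of such a gene was a member when the mean over the 6 libraries was 20 junction reads or more. This gave 210 of 21158 retained intron events and 1325 of 153168 skipped exon events, in 117 genes. At that limit, an INTS11 intron with a mean of 20.3 reads was just inside and a MED10 intron with 19.8 just outside. Among exon events, 1 of MED23 with 20 reads was inside and 1 of TAF6 with 19.8 outside. RNA polymerase I makes ribosomal RNA, polymerase II makes mRNA and most small nuclear RNAs, and polymerase III makes transfer RNA and 5S ribosomal RNA. TFIID and TFIIH are general factors of polymerase II, SL1 and TFIIIC bring polymerases I and III to their genes, Mediator passes signals of activators to polymerase II, and Integrator cleaves the new transcripts of small nuclear RNA genes and of many paused polymerases.

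RNA came from HEK293A-TOA cells, a line of human embryonic kidney origin, without any added inhibitor. Per the labels, the siSFSWAP cells (3 libraries) received 40 nM of a mixture of siRNAs against SFSWAP, an SR-like nuclear splicing regulator, and the siNT cells (3 libraries) received a non-target siRNA. RNA was taken after 5 days, and the libraries are biological replicates, which the study defines as cells passaged at different times. All cells were of the same line and each group had the same siRNA or mixture throughout. Inclusion is the share of transcripts, in percent, that keep the intron or exon. It was computed from the inclusion and skipping junction reads after division by their effective lengths.

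The retained intron events held between 2767079 and 7465949 junction reads per library and the skipped exon events between 19515010 and 55274283, and siNT library a was the deepest in both. Per library, the median over tested members was 59.0 to 169.5 reads for introns and 71.0 to 190.0 reads for exon events. Spliced reads of SFSWAP, used only to check which group of the tables is which, were 34.7, 34.6 and 21.3 CPM (counts scaled to the library total) in siSFSWAP and 79.7, 86.5 and 80.2 CPM in siNT. The log2 change was -1.46 (SE 0.16, adjusted p = 0.000354 by limma). VIM, an intermediate filament gene that this line expresses, had at least 3770 junction reads in every library, and the glial marker GFAP at most 2. The other markers looked up, among them PAX2, EYA1, NEFM and NEFL for this line, had no entry among the summed genes and gave no check. Library a of siNT stood apart from the other siNT libraries. Over the 63 member introns with a mean inclusion of 10 to 90%, the median inclusion was 16.1, 21.0 and 16.1% in siSFSWAP and 16.0, 24.6 and 22.7% in siNT, with libraries in the order a, b, c. Over the 104 member exon events in the same range it was 84.9, 82.7 and 81.4% in siSFSWAP, and 82.5, 73.7 and 70.9% in siNT. Results that turn on siNT library a are given with and without it, and its part in the other differences was not tested.

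The first comparison asked whether introns of these genes were removed more completely after SFSWAP knockdown. An intron was called when its adjusted p was at most 0.05 (two-sided quasi-binomial F test, adjusted over all tested introns) and its mean inclusion changed by at least 20 percentage points. Both forms of 168 introns in 59 genes had enough reads for the test, and the other 42 introns did not. Among the 168, 2 introns, in INTS11 and TAF1C, were called lower in siSFSWAP (1.19%), against 1.61% of all 10155 introns tested. No member intron was called higher, against 0.148% of all introns. By the unadjusted p, 22 member introns were lower and 7 higher at p under 0.05, and limma on log2 odds called none in either direction, with 21 lower and 4 higher at that level. All 3 siSFSWAP libraries were below all 3 siNT libraries in 26 member introns (15.5%, against 15.3% of all introns), and above them in 8 (4.76%, against 6.04%). The median change was -0.46 percentage points over the members and -0.52 over all introns. The shares in these genes were near those of all introns. Without siNT library a, 9 member introns were called lower (5.70% of 158, against 5.25% of all introns) and 1 higher (0.633%, against 0.464%). The 9 lay in INTS11 (4 introns), MED12 (2 introns), MED15, GTF3C2 and TAF1C, and the higher one was a POLR2F form of 126 bases.

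Short introns of 3 genes in which an intron fell with an adjusted p of at most 0.05, and for contrast an intron of the polymerase subunit POLR2H that did not fall, are shown here 5′ to 3′ as they stand in GRCh38, with the splice sites (6 bases at the 5′ end and 3 at the 3′ end) in capitals.
INTS11 intron 12 of 16 (chr1:1312701-1312786, minus strand, 76.7% GC): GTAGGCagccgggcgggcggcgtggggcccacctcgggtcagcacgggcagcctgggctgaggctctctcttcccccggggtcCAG
TAF1C intron 10 of 14 (chr16:84181464-84181591, minus strand, 63.3% GC): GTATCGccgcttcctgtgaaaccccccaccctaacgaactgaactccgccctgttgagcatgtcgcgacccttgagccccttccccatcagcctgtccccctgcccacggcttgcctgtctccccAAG
MED15 intron 15 of 17 (chr22:20585016-20585100, plus strand, 71.8% GC): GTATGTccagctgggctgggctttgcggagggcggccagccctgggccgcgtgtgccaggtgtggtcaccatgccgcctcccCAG
POLR2H intron 3 of 5 (chr3:184365050-184365132, plus strand, 31.3% GC): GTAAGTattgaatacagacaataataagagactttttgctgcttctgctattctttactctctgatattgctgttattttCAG
The introns of INTS11, TAF1C and MED15 were rich in G and C, and that of POLR2H was rich in A and T. All 4 lie between coding exons. GC-rich member introns with higher mean inclusion in siSFSWAP occurred too, such as a GTF3C1 form with 61.0% GC that is described below.

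INTS11, the endonuclease of Integrator (ENSG00000127054.22), had the largest intron change of the group. All 9 of its tested introns had lower mean inclusion in siSFSWAP, with a median change of -15.5 points. Intron 12, whose sequence of 86 bases is printed above, had 28.6, 28.4 and 31.7% inclusion in siSFSWAP libraries and 52.9, 60.7 and 70.7% in siNT libraries. The groups did not overlap, and the change was -31.8 points (29.6 ± 1.85% and 61.4 ± 8.88%, SD, n = 3 each, adjusted p = 0.00798). Without siNT library b or any 1 siSFSWAP library the adjusted p of this intron was between 0.0602 and 0.0895, and the change lay between -36.1 and -27.2 points whichever library was left out. Intron 9 (139 bases) passed by adjusted p alone, with 2.49, 4.05 and 1.52% in siSFSWAP, against 5.32, 22.0 and 27.3% in siNT. Its change of -15.5 points (adjusted p = 0.0418) was short of the 20 points asked for, and siNT library a lay close to the siSFSWAP libraries.

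The other INTS11 introns were not called. Intron 14, the shortest at 71 bases, had 7.81, 21.0 and 20.4% in siSFSWAP and 21.0, 64.7 and 48.6% in siNT, a difference of -28.4 points (adjusted p = 0.242). Intron 2, of 466 bases, had 22.9, 24.2 and 22.7% in siSFSWAP and 30.5, 40.8 and 62.5% in siNT, a difference of -21.3 points (adjusted p = 0.123). At intron 2 the siSFSWAP libraries were nearly alike, the siNT libraries were far apart and the groups did not overlap. Intron 11 had 0.270, 4.01 and 2.53% in siSFSWAP and 4.49, 23.01 and 13.0% in siNT. Introns 10 and 13 differed by -8.23 and -5.90 points with overlapping groups. The remaining forms of 411 and 224 bases overlap intron 10 and introns 13 and 14, so they share reads with them. In 6 of the 9 INTS11 introns (66.7%, against 15.3% of all introns) all siSFSWAP libraries were below all siNT libraries. Without siNT library a, introns 2, 9, 12 and 14 were called lower, with changes of -28.4, -22.0, -36.1 and -40.2 points. No tested exon of INTS11 was called. The exon with the largest difference, exon 2 of 17 (98 bases), had 100, 100 and 91.7% in siSFSWAP and 100, 77.0 and 93.1% in siNT (7.19 points, adjusted p = 0.642).

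**Figure D1:**
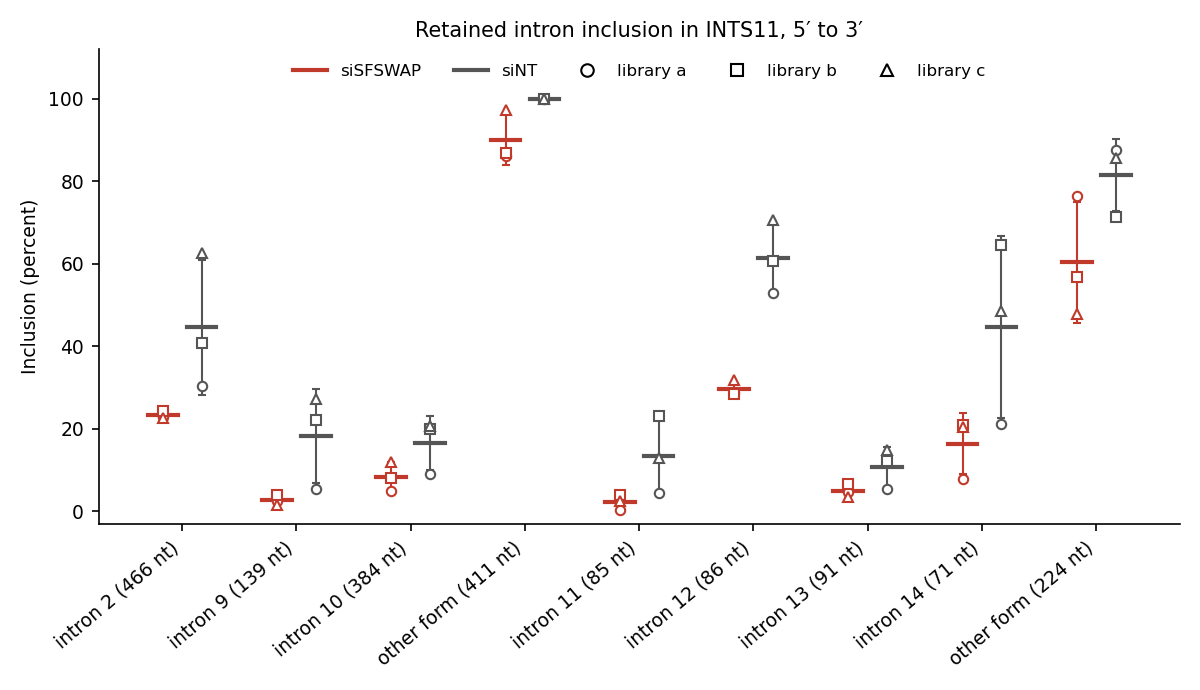
Inclusion in percent of the 9 tested INTS11 introns, in order from the 5′ end, in siSFSWAP (red, left of each pair) and siNT (grey, right). Symbols are libraries a, b and c, thick marks means and bars SD (n = 3 each), and at intron 12 the siSFSWAP libraries lie between 28.4 and 31.7% while the siNT libraries lie between 52.9 and 70.7%.

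Across Integrator, 18 of 23 introns in 7 genes had lower mean inclusion in siSFSWAP, with a median of -4.45 points, and INTS11 alone gave 9 of the 23. Over all introns tested, 6212 of 10155 were lower. INTS1, the largest subunit, had 6 tested introns. Its intron 36 of 47 (136 bases, chr7:1476658-1476793) had 2.17, 3.70 and 5.71% in siSFSWAP and 6.67, 13.0 and 15.2% in siNT (-7.73 points, adjusted p = 0.195). INTS8 intron 24 of 26, only 26.03% GC, had 18.8, 8.39 and 32.0% in siSFSWAP and 17.0, 19.7 and 19.4% in siNT, so the siSFSWAP libraries lay on both sides of the siNT libraries (1.06 points, adjusted p = 0.923). INTS3, whose product also belongs to a DNA damage complex, had 3 tested introns with differences from -3.23 to 0.87 points.

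SL1 is the TBP complex that recruits polymerase I, and its subunit gene TAF1C carried the other called intron. TAF1C intron 10, of 128 bases, had 68.3, 61.8 and 61.5% inclusion in siSFSWAP libraries and 88.6, 100 and 93.4% in siNT libraries. The groups did not overlap, and the change was -30.1 points (63.9 ± 3.84% and 94.0 ± 5.73%, SD, n = 3 each, adjusted p = 0.0221). The call was lost without siNT library b or any 1 siSFSWAP library (adjusted p of 0.114 to 0.125), and with inclusion computed without effective lengths the change was -18.95 points. Intron 8 (78 bases) had 43.2, 60.9 and 65.9% in siSFSWAP and 49.2, 60.3 and 51.6% in siNT (3.01 points, adjusted p = 0.955), and a form of 282 bases that spans introns 9 and 10 differed by 2.26 points (adjusted p = 0.981). Intron 5 had 2.50, 1.80 and 2.28% in siSFSWAP and 7.68, 11.9 and 23.9% in siNT (-12.3 points, adjusted p = 0.0939). In all, 5 of 7 tested TAF1C introns and forms had lower mean inclusion. The TAF1C exon of largest difference, exon 3 of 15, had 86.8, 100 and 100% in siSFSWAP and 74.7, 65.0 and 55.2% in siNT at a mean of only 20.8 reads per library (30.6 points, adjusted p = 0.112). TAF1D, another SL1 subunit, had introns rich in A and T, and intron 4 (29.5% GC) had 21.3, 33.3 and 20.7% in siSFSWAP and 24.1, 21.0 and 23.5% in siNT (2.29 points, adjusted p = 0.950).

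Mediator had 39 tested introns in 12 genes, of which 28 had lower mean inclusion in siSFSWAP (median -1.19 points), against 6212 of all 10155. MED15, a subunit of the tail module that binds activators (ENSG00000099917.17), had an adjusted p under 0.05 at intron 15, of 85 bases. Its inclusion was 4.13, 8.88 and 9.13% in siSFSWAP and 15.4, 26.1 and 35.4% in siNT. No siSFSWAP library reached the lowest siNT library, and the change of -18.3 points (adjusted p = 0.0147) was just short of the threshold. Without siNT library a it was -23.4 points and past it. In MED12, of the kinase module, intron 25 of 44 (100 bases, chrX:71129216-71129315) had 18.6, 26.2 and 15.0% in siSFSWAP and 31.1, 47.4 and 39.5% in siNT. The difference of -19.4 points had an adjusted p of 0.128, and without siNT library a it was -23.5 points and called. Of the 12 tested MED12 introns, 9 had lower mean inclusion. Intron 27 had the largest difference, with 6.45, 17.6 and 9.43% in siSFSWAP and 5.56, 62.5 and 28.6% in siNT, and siNT library a was the lowest of the 6 libraries (-21.0 points, adjusted p = 0.688). Without it this intron was called too, at -34.4 points. Intron 23 of MED12 was the exception with siSFSWAP libraries above siNT libraries, at 1.64, 15.0 and 4.55% in siSFSWAP and 1.08, 0 and 0% in siNT (6.70 points, adjusted p = 0.357). MED24, also of the tail, had 3.36, 3.32 and 4.46% at intron 17 in siSFSWAP and 5.78, 16.9 and 13.7% in siNT (-8.42 points, adjusted p = 0.117).

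None of the introns of the polymerase subunits was called. POLR2I encodes the small polymerase II subunit RPB9 and had all 5 of its introns tested. Intron 2 (246 bases, chr19:36114413-36114658) had 10.9, 11.7 and 11.3% in siSFSWAP and 16.0, 21.4 and 20% in siNT. All siSFSWAP libraries were lower at a mean of 463.8 reads per library, and the change of -7.83 points had an adjusted p of 0.0227. Intron 1 had 15.6, 20.2 and 20.4% in siSFSWAP and 22.4, 32.4 and 30.5% in siNT (-9.69 points, adjusted p = 0.148). The 3 introns nearer the 3′ end had at most 5.81% inclusion in any library and differed by -0.26 to -0.71 points. POLR2A, the largest subunit, had 6 tested introns with differences between -0.95 and 0.45 points. A POLR2G intron form of 637 bases (chr11:62761905-62762541) was mostly retained in both groups, at 72.6, 70.6 and 69.6% in siSFSWAP and 76.4, 68.7 and 75.6% in siNT (-2.61 points, adjusted p = 0.908).

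In a few introns of this group the siSFSWAP libraries were the higher ones, although none was called with all 6 libraries. The largest mean rise of the member introns, 17.1 points, was in a POLR2F form of 126 bases (adjusted p = 0.325). It had 92.3, 100 and 100% in siSFSWAP and 94.6, 77.8 and 68.6% in siNT, so the groups overlapped. Without siNT library a it was called, at 24.2 points (adjusted p = 0.0141). POLR2H, a subunit shared by the 3 polymerases, had 15.0, 11.3 and 13.7% at intron 3 in siSFSWAP and 8.71, 6.18 and 9.90% in siNT (5.06 points, adjusted p = 0.169). Exon 3 of 6, which ends where this intron begins, had 92.8, 95.8 and 94.8% in siSFSWAP and 100, 98.4 and 98.9% in siNT (-4.65 points, adjusted p = 0.0403). POLR1C, shared by polymerases I and III, had 17.9, 25.0 and 27.0% at intron 4 of 8 in siSFSWAP and 14.2, 9.57 and 17.2% in siNT (9.62 points, adjusted p = 0.179). GTF3C1 encodes the largest TFIIIC subunit, and its intron form of 802 bases (chr16:27463593-27464394, 61.0% GC) had 45.8, 42.7 and 41.9% in siSFSWAP and 34.2, 28.2 and 31.5% in siNT (12.2 points, adjusted p = 0.0940). The shorter form of this intron, of 727 bases and with the same 3′ end, differed by 0.10 points. Without siNT library a, the form of 802 bases differed by 13.6 points (adjusted p = 0.0047) and POLR1C intron 4 by 9.89 points (adjusted p = 0.0340). Both were short of the 20 points asked for. The TFIIIC subunit gene GTF3C2 differed in the other direction. Its intron 9 of 18 had 6.77, 7.69 and 10.1% in siSFSWAP and 15.0, 30.1 and 36.4% in siNT (-19.0 points, adjusted p = 0.0635), and was called without siNT library a. Intron 8 had 5.56, 6.67 and 11.1% in siSFSWAP and 14.7, 24.0 and 20.4% in siNT (-11.9 points, adjusted p = 0.0905).

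TFIIH opens the promoter and phosphorylates polymerase II. Its subunit genes GTF2H4 and GTF2H3 each had an intron with groups that did not overlap. GTF2H4 intron 12 had 38.2, 50.3 and 43.9% in siSFSWAP and 52.2, 59.2 and 62.1% in siNT (-13.6 points, adjusted p = 0.199). GTF2H3 intron 10 had 5.42, 1.64 and 5.97% in siSFSWAP and 7.64, 22.0 and 19.0% in siNT (-11.9 points, adjusted p = 0.158). Neither was called. In GTF2F1, the large TFIIF subunit, intron 10 had 1.26, 2.40 and 3.35% in siSFSWAP and 3.91, 6.78 and 8.35% in siNT (-4.01 points, adjusted p = 0.0788). The 19 introns of TFIID genes had a median difference of -0.25 points, and none was called. Among them TAF11 intron 3 had 15.9, 15.4 and 14.0% in siSFSWAP and 19.6, 19.7 and 17.1% in siNT (-3.70 points, adjusted p = 0.631). TAF15, an RNA-binding protein of the FET family found with TFIID, had 6 introns of low GC content with a median difference of 0.13 points. Its intron of 94 bases was at 79.4, 83.3 and 78.9% in siSFSWAP and 84.2, 81.3 and 80.8% in siNT (-1.59 points, adjusted p = 0.865). The polymerase III genes POLR3C and POLR3F differed by -4.96 and -2.31 points at their most retained introns, and intron 10 of POLR1A and intron 2 of POLR1H, genes of polymerase I, by 0.40 and 0.72 points, none of them past an adjusted p of 0.05. The other introns that the rule names among introns lay in POLR2G (822 bases), GTF3A, TAF9, TAF15 (88 bases), GTF2I, GTF2F1 (213 bases) and POLR2E. They differed by -6.54 to 1.94 points, with adjusted p of at least 0.398. Further introns were those of largest change in genes with a named exon. In TAF1, TAF1D, POLR2E, POLR1A, MED1, POLR2B and INTS13 they differed by 13.9, 8.69, 7.49, 5.93, 2.47, 1.36 and 0.21 points. In TAF15, GTF2H1 and POLR3GL they differed by -7.68, -6.57 and -1.01 points. The groups overlapped in each of them, with adjusted p of at least 0.204.

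**Figure D2:**
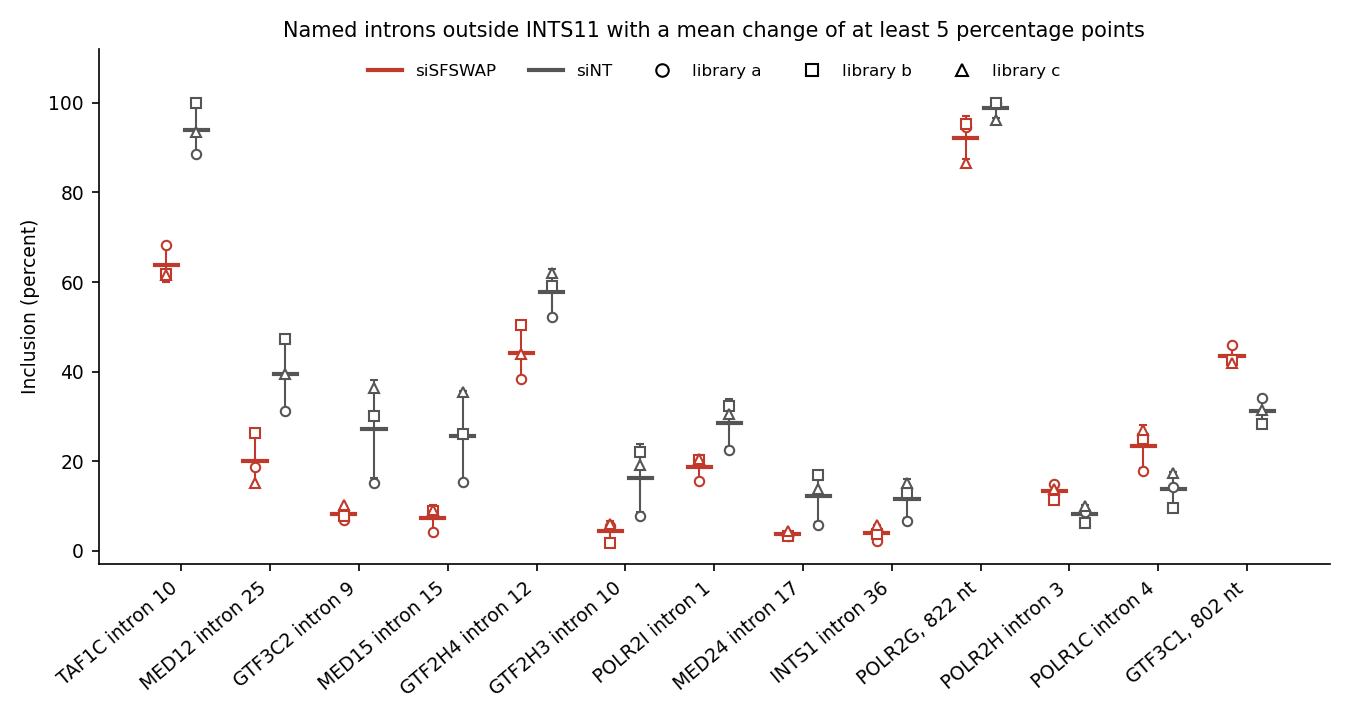
Inclusion in percent of introns of the other genes, chosen by rule and with a mean difference of at least 5 points, in siSFSWAP (red, left of each pair) and siNT (grey, right), sorted by the difference. Symbols are libraries a, b and c, thick marks means and bars SD (n = 3 each), and TAF1C intron 10, with 61.5 to 68.3% in siSFSWAP and 88.6 to 100% in siNT, is the only called intron drawn.

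The second comparison asked whether skipped exons of these genes were included more after SFSWAP knockdown. Of the 1325 member events, 621 on 569 different exons of 105 genes were tested, and 704 had under 5 reads of a form over the 6 libraries or too few libraries with reads. In siSFSWAP, 9 events were called higher (1.45%, against 1.44% of all 48100 events) and 3 lower (0.483%, against 0.655%). At an adjusted p of at most 0.05 with any size of change, 18 events were higher (2.90%, against 3.25%) and 22 lower (3.54%, against 2.17%). For introns these were 5 lower (2.98%, against 2.86%), while 0.364% of all introns and no member intron were higher. All siSFSWAP libraries were above all siNT libraries in 81 exon events (13.0%, against 14.3%) and below them in 63 (10.1%, against 9.06%). Mean inclusion was higher in siSFSWAP in 333 member events and lower in 288, against 27671 and 20428 of all 48100. The called shares were near those of all events, and the share lower at any size of change was above that of all events. Of the 40 member events at that adjusted p in either direction, GTF3A and TAF1D held 6 each. These 2 genes had 14 and 20 tested events, among them overlapping forms that share reads. Without siNT library a, 16 of 523 events were called higher (3.06%, against 3.76%) and 2 lower (0.382%, against 0.881%). The 16 were the same 9 and 7 more, in MED12 (exon 34 and overlapping forms of 155 and 97 bases), MED15 (exon 9), MED16 (forms of 356 and 149 bases) and TAF15 (a form of 339 bases). By the unadjusted p, 70 events were higher and 51 lower at p under 0.05, and limma on log2 odds called none higher and 1 lower. The call counts also depended on single libraries, with 4 to 16 events called higher and 1 to 7 called lower over the 6 fits that leave 1 out.

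Called exons that held in most fits with 1 library left out, including the one with the largest fall, are printed with 20 bases of the upstream intron and 6 of the downstream intron in lower case and the exon in capitals.
TAF6 exon 5 of 15 (chr7:100113349-100113405, minus strand): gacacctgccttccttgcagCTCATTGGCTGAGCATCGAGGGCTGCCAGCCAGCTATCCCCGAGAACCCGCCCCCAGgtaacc
POLR3E exon 11 of 21 (chr16:22316995-22317039, plus strand): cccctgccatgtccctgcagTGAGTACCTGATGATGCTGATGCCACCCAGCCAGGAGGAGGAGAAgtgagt
GTF2IRD1 exon 19 of 27 (chr7:74555438-74555494, plus strand): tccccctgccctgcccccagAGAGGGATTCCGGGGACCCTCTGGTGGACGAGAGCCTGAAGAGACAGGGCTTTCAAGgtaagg
MED1 exon 5 of 17 (chr17:39440386-39440518, minus strand): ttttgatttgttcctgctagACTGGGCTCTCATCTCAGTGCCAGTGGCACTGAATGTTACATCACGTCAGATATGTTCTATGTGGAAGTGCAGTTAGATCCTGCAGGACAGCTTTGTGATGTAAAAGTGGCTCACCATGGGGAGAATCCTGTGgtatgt
GTF2H2C exon 7 of 17 (chr5:69567727-69567777, plus strand): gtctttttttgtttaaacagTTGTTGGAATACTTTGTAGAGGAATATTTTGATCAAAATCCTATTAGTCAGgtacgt
The exons of TAF6, POLR3E and GTF2IRD1, which rose, had 66.7, 55.6 and 59.6% GC, and those of MED1 and GTF2H2C, which fell, 48.1 and 29.4%.

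TAF6, a histone-fold subunit of TFIID (ENSG00000106290.16), included exon 5 more often in siSFSWAP. This exon of 57 bases had 90.4, 89.3 and 94.0% inclusion in siSFSWAP and 69.8, 55.2 and 58.5% in siNT. The groups did not overlap, and the rise was 30.1 points (91.3 ± 2.43% and 61.1 ± 7.66%, SD, n = 3 each, adjusted p = 0.000114). The call held whichever 1 library was left out, with a largest adjusted p of 0.0068. An intron form of 698 bases that spans this exon is scored against the same exon-skipping junction, and it had 16.1, 28.6 and 20% in siSFSWAP and 6.57, 12.8 and 4.17% in siNT (13.7 points, adjusted p = 0.212). Intron 4, just upstream of the exon, had 5.56, 14.3 and 6.21% in siSFSWAP and 9.50, 14.7 and 12.3% in siNT (-3.48 points, adjusted p = 0.693). Of all tested member introns, 4 share their spliced junction with the skipping junction of a tested member exon in this way. Other TFIID exons were not called, among them a TAF1 exon of 102 bases, with 34.6, 39.5 and 37.1% in siSFSWAP and 28.7, 25.4 and 25.7% in siNT (10.5 points, adjusted p = 0.310). TAF6L, grouped here with TFIID by symbol only, had no call either. Its exon 7 of 11 had 98.2, 100 and 100% in siSFSWAP and 90.4, 92.9 and 80.5% in siNT (11.5 points, adjusted p = 0.0721).

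In Mediator, 72 of 113 tested exon events had higher mean inclusion in siSFSWAP, against 27671 of all 48100. Of the 113, 3 were called higher (2.65%, against 1.44% of all events) and 1 lower (0.885%, against 0.655%). The 3 higher calls were overlapping forms of 1 exon of MED16, a tail subunit. The annotated form, exon 9 of 16 (207 bases, chr19:876974-877180), had 100, 88.3 and 91.9% in siSFSWAP and 82.1, 57.4 and 69.7% in siNT. All siSFSWAP libraries were higher, and the rise was 23.7 points (adjusted p = 0.0149). The forms of 224 and 162 bases rose by 34.4 and 31.9 points (adjusted p of 0.00818 and 0.0319). All 3 forms lost the call without siNT library b, siSFSWAP library a or siSFSWAP library c, with adjusted p between 0.0686 and 0.284, and the form of 162 bases also without siSFSWAP library b or siNT library c. Upstream in MED16, an unannotated exon form of 356 bases had 92.3, 88.3 and 88.3% in siSFSWAP and 81.7, 67.0 and 62.1% in siNT (19.4 points, adjusted p = 0.0419), and without siNT library a it rose by 25.1 points and was called. In 7 of the 8 tested MED16 events (87.5%, against 14.3% of all events) all siSFSWAP libraries were above all siNT libraries. The 8 include overlapping forms that share reads, so they are not separate exons.

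MED1, the Mediator subunit that binds nuclear receptors (ENSG00000125686.12), moved in the other direction. Its exon 5, of 133 bases, had 78.4, 74.4 and 58.5% in siSFSWAP and 95.5, 91.4 and 97.5% in siNT. All siSFSWAP libraries were lower, and the change was -24.4 points (70.4 ± 10.5% and 94.8 ± 3.13%, SD, n = 3 each, adjusted p = 0.00165). Without siSFSWAP library c, the lowest, it was -18.4 points, short of the threshold (adjusted p = 0.0420). With inclusion computed without effective lengths, the changes of this exon, of MED16 exon 9 and of POLR3E exon 11 were -15.0, 14.8 and 15.1 points. MED12 exon 34 of 45 had 97.9, 97.2 and 95.1% in siSFSWAP and 81.3, 84.6 and 67.7% in siNT (18.8 points, adjusted p = 0.0265), and was called without siNT library a, at 20.5 points (adjusted p = 0.0255). A MED24 exon of 57 bases (chr17:40034916-40034972) was mostly skipped in both groups, at 20.7, 22.1 and 21.1% in siSFSWAP and 5.84, 9 and 2.41% in siNT. Its rise of 15.5 points had an adjusted p of 0.000255, which stayed at or below 0.00736 whichever library was left out. MED15 exon 9 of 18, at a mean of 32.8 reads per library, had 100, 86.7 and 93.1% in siSFSWAP and 87.5, 58.3 and 55.6% in siNT (26.1 points, adjusted p = 0.185). Only siNT library a overlapped the siSFSWAP libraries, and without it the exon was called, at 36.3 points (adjusted p = 0.0126).

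Among the polymerase III genes, POLR3E, an auxiliary subunit (ENSG00000058600.16), gained exon 11. This exon of 45 bases had 97.9, 97.7 and 97.4% in siSFSWAP and 86.8, 73.3 and 72.5% in siNT. The siSFSWAP libraries were nearly alike, and the rise was 20.1 points (97.6 ± 0.26% and 77.5 ± 8.01%, SD, n = 3 each, adjusted p = 0.000596). The adjusted p stayed at or below 0.0337 in every fit with 1 library left out, but the change was 18.04 points without siNT library b and 17.6 without siNT library c. POLR3A, the largest subunit, had 92.7, 80.9 and 76.4% at exon 26 of 31 in siSFSWAP and 95.4, 96.2 and 93.9% in siNT (-11.8 points, adjusted p = 0.112). The intron that ends at this exon, intron 25, had 3.03, 11.9 and 8.47% in siSFSWAP and 3.86, 1.57 and 3.85% in siNT (4.70 points, adjusted p = 0.434). GTF3A encodes TFIIIA, the zinc finger factor of 5S ribosomal RNA genes. Its unannotated exon form of 55 bases (chr13:27435138-27435192) had 90.8, 91.2 and 88.5% in siSFSWAP and 100, 100 and 100% in siNT. The fall of 9.81 points had an adjusted p of 0.0027, which stayed at or below 0.0224 whichever library was left out. The annotated exon 8, of 60 bases with the same 3′ end, had 97.6, 97.4 and 96.3% in siSFSWAP and 100, 100 and 100% in siNT (-2.89 points, adjusted p = 0.00568).

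POLR2E, shared by the 3 polymerases, had a called rise in a minor form of its exon 3. The annotated exon (116 bases, chr19:1091792-1091907) was nearly always included, at 98.6, 99.2 and 98.2% in siSFSWAP and 98.2, 94.5 and 93.2% in siNT (3.39 points, adjusted p = 0.0889). A form of 114 bases, with a 5′ end 2 bases further in, had 81.1, 76.0 and 92.7% in siSFSWAP and 55.8, 50.6 and 56.4% in siNT (29.0 points, adjusted p = 0.0114). Both forms are scored against the same skipping junction, so the rise of the minor form is in part the same measurement. Without siSFSWAP library a, siSFSWAP library c or siNT library b its adjusted p was between 0.0552 and 0.160. In the TFII-I family, 2 overlapping forms of exon 19 of GTF2IRD1 rose. The form of 57 bases had 86.0, 83.2 and 91.3% in siSFSWAP and 59.2, 52.6 and 44.7% in siNT, and the form of 102 bases had 84.6, 79.6 and 89.5% in siSFSWAP and 54.5, 52.2 and 42.1% in siNT. The rises were 34.7 and 34.9 points (adjusted p of 0.00111 and 0.00127), and both calls held whichever 1 library was left out. By limma on log2 odds, however, these forms and TAF6 exon 5 had adjusted p of 0.0867, 0.0923 and 0.0753. The tested intron 18 of GTF2IRD1, which ends at the 57-base form, had 32.1, 25.6 and 23.5% in siSFSWAP and 29.7, 36.0 and 28.0% in siNT (-4.18 points, adjusted p = 0.904).

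In SL1, exons of TAF1D were included less. An unannotated exon of 113 bases among 3′ UTR exons (chr11:93733009-93733121, 28.3% GC) had 78.9, 78.6 and 73.3% in siSFSWAP and 97.4, 94.3 and 100% in siNT. The fall was 20.3 points (adjusted p = 0.0433), at a mean of 39.3 reads per library, and leaving out any 1 library ended this call (adjusted p of 0.0811 to 0.178). Exon 5 of 6, of 58 bases, had 93.9, 86.7 and 75.9% in siSFSWAP and 99.4, 97.0 and 96.6% in siNT (-12.1 points, adjusted p = 0.00273). An overlapping form of 143 bases that reaches into intron 4 had 89.2, 78.9 and 60% in siSFSWAP and 99.005, 94.6 and 93.8% in siNT (-19.8 points, adjusted p = 0.00273). Of 20 tested TAF1D events, which share many reads, 17 had lower mean inclusion in siSFSWAP.

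The Integrator exons had no call. An unannotated exon form of 159 bases in INTS10 had 85.2, 84.4 and 85.3% in siSFSWAP and 96.2, 97.6 and 97.6% in siNT (-12.2 points, adjusted p = 0.0403). INTS8 exon 8 of 27 had 97.3, 100 and 95.2% in siSFSWAP and 93.9, 81.0 and 90.2% in siNT (9.12 points, adjusted p = 0.299). INTS13 exon 10 of 17 had 98.5, 97.8 and 89.2% in siSFSWAP and 100, 100 and 100% in siNT (-4.80 points, adjusted p = 0.0681). Of 91 tested Integrator exon events, 4 had an adjusted p of at most 0.05 by the quasi-binomial test, against 2608 of all 48100. The 4 events lay in INTS13 (2), INTS10 (1) and INTS2 (1). In INTS13, 7 of 8 tested events had lower mean inclusion in siSFSWAP and 1 higher. The only tested INTS2 event differed by -11.4 points. Across the complex 38 events were lower and 53 higher. An exon of 207 bases in the 5′ UTR of the TFIIH gene GTF2H1 had 8.93, 20 and 17.4% in siSFSWAP and 5.03, 5.62 and 3.82% in siNT (10.6 points, adjusted p = 0.0353). An unannotated form of 55 bases in GTF2I, the TFII-I gene, had 96.3, 88.5 and 83.9% in siSFSWAP and 100, 98.3 and 100% in siNT (-9.88 points, adjusted p = 0.0274), and GTF2I has near-identical copies too. The adjusted p of the INTS10, GTF2H1 and GTF2I exons reached 0.147, 0.205 and 0.231 when 1 library was left out. Exons of POLR3GL, GTF3C1, GTF3C5 and TAF1B differed by 14.0, 11.1, 5.67 and -9.70 points with no overlap of groups and adjusted p of 0.451, 0.0872, 0.0521 and 0.109. Further exons that the rule names lay in POLR1A, POLR1E, POLR2B, POLR2F, POLR2G, TAF15, TAF6, GTF2F1, GTF2A2 and GTF2E2, with differences of -2.87 to 7.14 points and none past an adjusted p of 0.05.

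Calls of 2 genes with near-identical copies are uncertain, since reads of the copies may have been counted together or left out. GTF2H2C, a copy of the TFIIH subunit gene GTF2H2 (ENSG00000183474.16), had the largest change of the group's exons. Its exon 7 of 51 bases had 5.50, 2.68 and 4.56% in siSFSWAP and 55.1, 48.5 and 46.8% in siNT. All siSFSWAP libraries were far lower, and the change of -45.9 points (adjusted p = 2.85e-06) was called by limma on log2 odds too (adjusted p = 0.0419), and its adjusted p was at most 0.000273 when 1 library was left out. The next exon, exon 8, was kept at 98.8, 97.7 and 96.7% in siSFSWAP and 88.3, 96.2 and 96.2% in siNT (4.18 points, adjusted p = 0.258). POLR2J3, a copy of the gene of the polymerase II subunit RPB11, had 54.0, 64.0 and 53.4% at exon 4 of 7, in the 3′ UTR, in siSFSWAP and 31.4, 37.2 and 33.3% in siNT (chr7:102566582-102566736, 23.1 points, adjusted p = 0.00617). Without siSFSWAP library b the rise was 19.7 points, short of the threshold.

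Of the 9 exon events called higher, 7 had a length that is a multiple of 3, as had 1 of the 3 called lower. Over all tested member events this share was 39.3% and over all tested events 39.1%. Since the 9 include overlapping forms of the same exons, these counts are a description only.

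**Figure D3:**
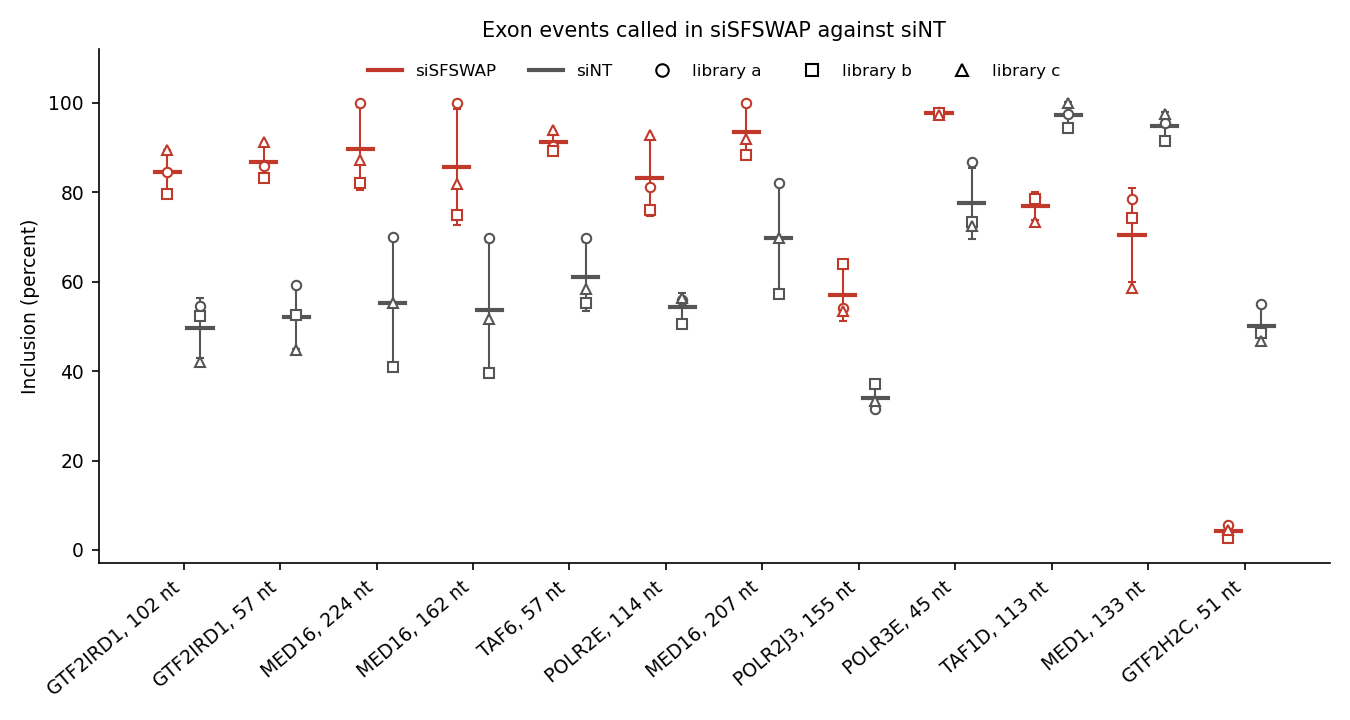
Inclusion in percent of the 12 called exon events, named by gene and exon length in bases, in siSFSWAP (red, left of each pair) and siNT (grey, right), sorted by the difference. Symbols are libraries a, b and c, thick marks means and bars SD (n = 3 each), and the widest gap is GTF2H2C, at 2.68 to 5.50% in siSFSWAP and 46.8 to 55.1% in siNT.

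GC content went with the direction of change among the members, as it did over all genes. Over the 63 tested member introns with mean inclusion of 10 to 90% (32 genes), Spearman's rho of the change with GC content was -0.47 and Pearson's r -0.47, against -0.38 and -0.35 over 3532 introns of all genes. Member introns above 60% GC had a median change of -9.27 points, with 17 of 22 lower in siSFSWAP, and those below 45% GC a median of 0.51 points, with 9 of 20 lower. Over the 104 member exon events in that range (45 genes), rho was 0.58 and r 0.58, against 0.41 and 0.40 over 11893 events of all genes. Member exons above 60% GC had a median change of 18.8 points, with 4 of 25 lower, and those below 45% GC a median of -7.12 points, with 21 of 31 lower. Introns of a gene share their surroundings, exon forms share reads and all points share 6 libraries, so no p is given. GC content also separated siNT libraries from each other: for siNT library a minus the mean of b and c, rho over the same members was -0.27 for introns and 0.35 for exons. For siSFSWAP library a minus the mean of b and c it was -0.09 and -0.14. Between siSFSWAP and siNT libraries b and c it was -0.49 for introns and 0.59 for exons, and between siSFSWAP library a and siNT library a it was -0.39 and 0.44. Over the events of all genes in that range, rho for siNT library a minus the mean of b and c was -0.42 for introns and 0.35 for exons. For introns this was no weaker than the -0.38 between the groups. Between siSFSWAP library a and siNT library a, rho over all genes was -0.21 and 0.24. What part a difference in library preparation or depth has in the relation was not tested.

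**Figure D4:**
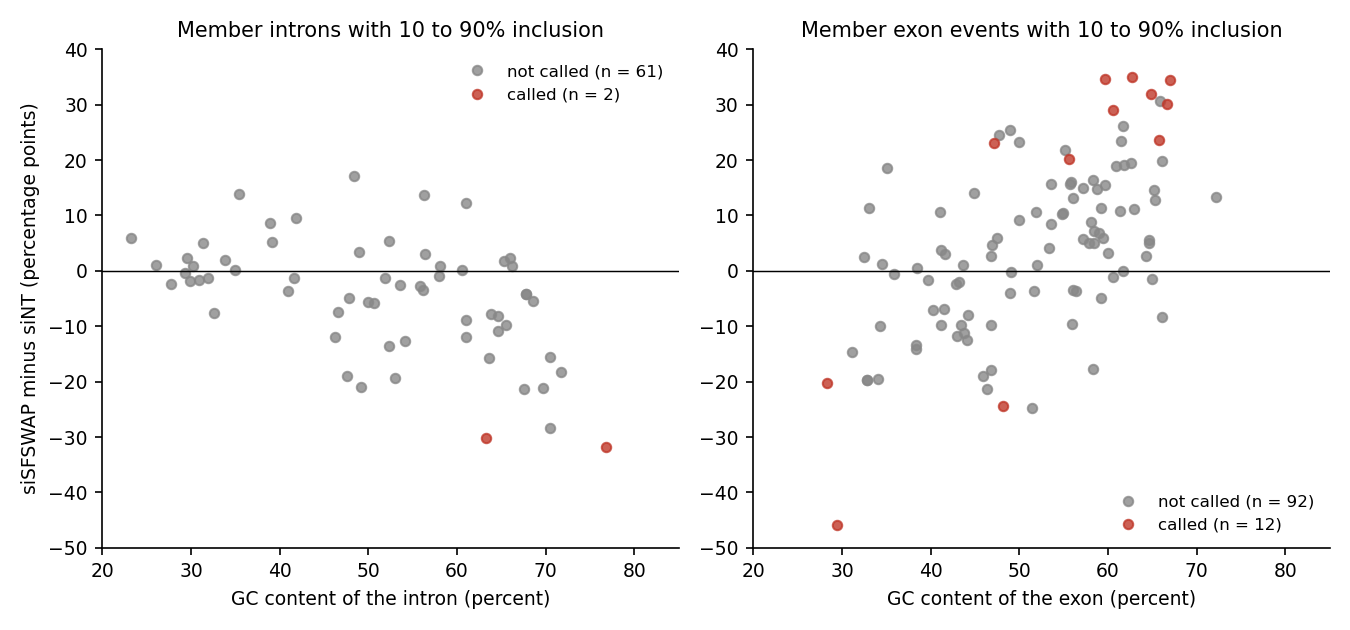
Change in mean inclusion, siSFSWAP minus siNT in percentage points, against GC content in percent for member introns (left, 63) and member exon events (right, 104) with a mean inclusion of 10 to 90%. Each point is an event, red if called, and introns lie lower and exons higher as GC content grows (rho of -0.47 and 0.58).

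Spliced junction reads summed per gene gave another readout of the same genes. Both splicing and RNA amount move these sums, which are therefore no measure of expression, and in bulk RNA fewer cells of a type and less RNA per cell cannot be told apart. Of 120 member gene identifiers tested, 18 were called higher in siSFSWAP (15.0%, against 14.7% of all 10780) and 24 lower (20%, against 15.6%) by limma at an adjusted p of at most 0.05. Without siNT library a, 27 of 120 were called higher, against 2460 of all 10603 (23.2%). In that fit 43 of 120 were called lower, against 2590 of all 10603 (24.4%). The directions differed between complexes. In Integrator 6 of 14 genes were called higher (INTS11, INTS1, INTS14, INTS3, INTS6L and INTS2). Of the subunits particular to polymerase I, 4 of 6 were called lower (POLR1E, POLR1F, POLR1B and POLR1A), as were both subunits shared by polymerases I and III (POLR1D and POLR1C), 5 of 10 of polymerase III (POLR3A, POLR3K, POLR3C, POLR3G and POLR3F) and 3 of 4 shared by all polymerases (POLR2K, POLR2H and POLR2F). POLR3GL, the paralog of POLR3G, was called higher. The differences between complexes were not tested.

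POLR3A, the largest subunit of polymerase III, fell to 119, 111.9 and 98.1 CPM in siSFSWAP, against 191, 248 and 244 CPM in siNT (log2 change -1.05, SE 0.11, adjusted p = 0.000353). POLR3K had 70.6, 69.4 and 63.2 CPM in siSFSWAP and 96.5, 147 and 161 CPM in siNT (log2 change -0.95, SE 0.16, adjusted p = 0.00163). POLR1D had 18.6, 17.5 and 17.5 CPM in siSFSWAP and 31.8, 36.4 and 31.6 CPM in siNT (log2 change -0.88, SE 0.11, adjusted p = 0.000504). The groups did not overlap in any of the 3 genes, and each stayed past the threshold whichever library was left out. MED27 and the TFIIH gene GTF2H1 had the next smallest p among the lower genes, with log2 changes of -0.65 and -0.67. Of the genes of TFIIA, TFIIB, TFIIE and TFIIF, 4 of 7 were called lower (57.1%, against 15.6% of all genes). These were GTF2F2, GTF2B, GTF2A2 and GTF2E2, with changes of -0.33 to -0.52 on the log2 scale. GTF2B, GTF2A2 and GTF2E2 lost the call in at least 1 fit with a library left out (largest adjusted p of 0.0906, 0.119 and 0.124).

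INTS11, whose intron 12 fell, rose in spliced reads to 129, 144 and 120 CPM in siSFSWAP, against 78.3, 59.6 and 50.8 CPM in siNT (log2 change 1.08, SE 0.14, adjusted p = 0.000566). MED12 had 77.3, 79.1 and 87.0 CPM in siSFSWAP and 52.2, 37.2 and 28.9 CPM in siNT (log2 change 1.07, SE 0.17, adjusted p = 0.00134). INTS1 had 263, 276 and 252 CPM in siSFSWAP and 195, 162 and 137 CPM in siNT (log2 change 0.69, SE 0.11, adjusted p = 0.00156). In these genes the siNT libraries were all below the siSFSWAP libraries and siNT library a was the highest of the 3. MED15 rose by 0.64 and MED12L, the paralog of MED12, by 0.63 on the log2 scale. In TFIID, TAF9B, a paralog of TAF9, and TAF6 were called higher (0.85 and 0.45) and TAF13 lower (-0.91). TAF6L, grouped here with TFIID by symbol only, was called higher too (0.40). Among polymerase II genes POLR2I was called higher (0.53), as were the copies POLR2J3, under both of its gene identifiers (0.81 and 0.62), and POLR2J4 (0.51), which are uncertain for the reason given above, as is GTF2H2C (0.90). MED1 and MED10 in Mediator (-0.38 and -0.64) and TAF1A in SL1 (-0.48) were called lower. Of the 42 called genes, 22 lost the call in at least 1 of the fits that leave a library out, with a largest adjusted p of 0.0595 to 0.188, among them MED1, INTS2, INTS3, INTS6L, POLR1A, POLR1B, POLR1F and the 3 subunits shared by all polymerases.

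**Figure D5:**
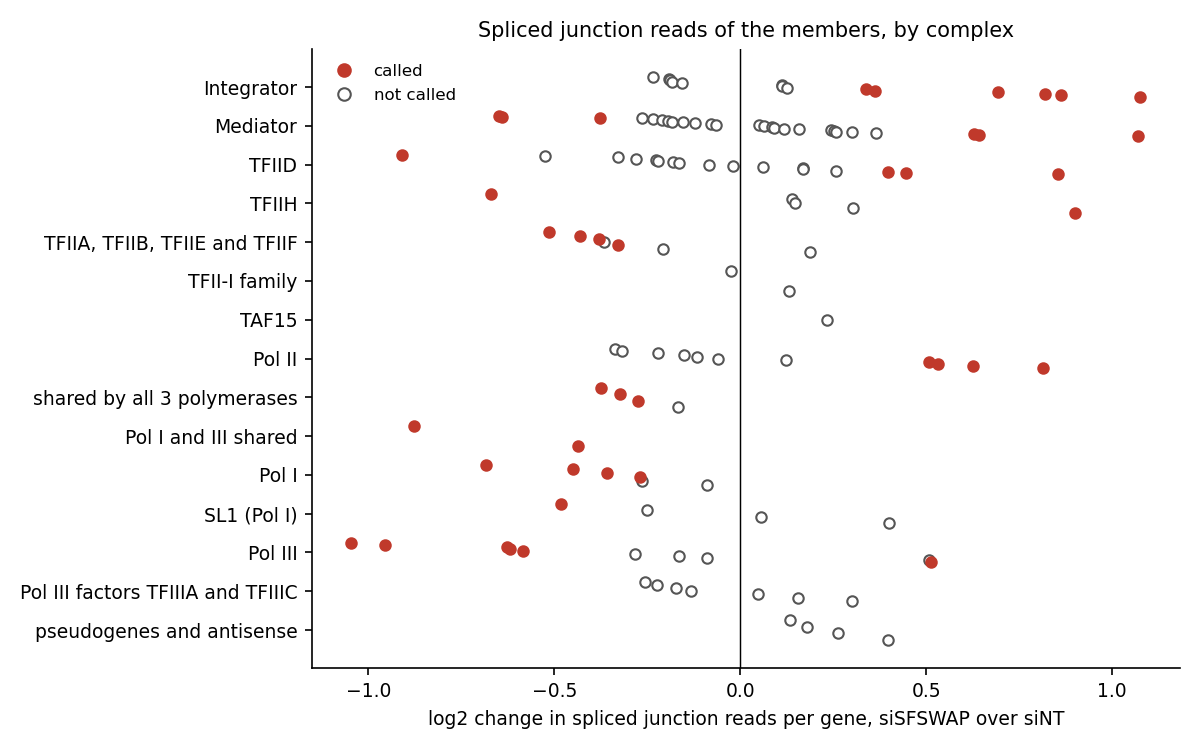
Log2 change in spliced junction reads per gene, siSFSWAP over siNT, for the 120 member gene identifiers, by complex. Filled points were called (limma adjusted p of at most 0.05), and values run from -1.05 for POLR3A to 1.08 for INTS11.

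Partners of these complexes that the symbols do not cover were read in the same way. Of 19 introns in 7 genes of such subunits and partners, 16 had lower mean inclusion, against 6212 of all 10155. Of the 19, 2 were called lower (10.5%, against 1.61% of all introns), both in MAF1, the repressor of polymerase III. MAF1 intron 5 of 7 (90 bases, chr8:144106465-144106554) had 9.70, 8.57 and 10.4% in siSFSWAP and 26.3, 50.1 and 57.3% in siNT (-35.0 points, adjusted p = 0.00202), and intron 4 had 5.04, 3.35 and 5.65% in siSFSWAP and 14.4, 27.5 and 36.1% in siNT (-21.3 points, adjusted p = 0.00718). With 1 library left out, intron 5 kept its call in 5 of 6 fits (largest adjusted p = 0.0575) and intron 4 in 1 of 6 (largest adjusted p = 0.0860, changes of -27.1 to -16.2 points). Among 127 exon events of these partners 1 was called (0.787%, against 1.44% of all events), a rise in exon 5 of 23 of ERCC2, the XPD helicase of TFIIH, with 100, 100 and 100% in siSFSWAP and 92.9, 67.6 and 47.1% in siNT (30.8 points, adjusted p = 0.0424). This call was kept in 1 of 6 fits with a library left out (largest adjusted p = 0.249). Among the elongation and assembly factors, none of 61 tested introns was called by the quasi-binomial test or by limma on log2 odds, with 3 lower and 3 higher by the quasi-binomial test at an unadjusted p under 0.05. Of their 200 exon events, 3 were called higher (1.5%, against 1.44% of all events) and 2 lower (1.00%, against 0.655%). The lower calls were overlapping forms of exon 5 of SUPT5H, the large DSIF subunit. The exon of 12 bases had 72.9, 63 and 62.9% in siSFSWAP and 90.1, 86.0 and 86.6% in siNT (-21.3 points, adjusted p = 1.4e-05), and the change was -24.6 to -19.7 points when 1 library was left out. NELFB exon 10 of 13 rose to 97.9, 99.1 and 100% in siSFSWAP, against 93.4, 78.8 and 64.8% in siNT (20.02 points, adjusted p = 0.00476), and an overlapping form rose by 20.3 points. An exon form of CTDP1, the phosphatase of the polymerase II tail, had 87.5, 60 and 61.5% in siSFSWAP and 44.4, 46 and 41.9% in siNT (25.5 points, adjusted p = 0.0388). The NELFB and CTDP1 calls were each kept in 1 of 6 fits with a library left out (largest adjusted p of 0.0775 and 0.462).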

How the data were processed

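Polyadenylated RNA of 3 siSFSWAP and 3 siNT libraries was sequenced from single ends. Per the labels and the study's methods, trimming by the authors used cutadapt 1.9.1, alignment to GRCh38 used STAR 2.7, and rMATS gave the junction reads of each event. The deposited tables hold, per event and library, junction read counts of the inclusion and skipping forms, inclusion levels, effective lengths and the authors' inclusion difference, a score from -1 to 1. That difference, and the authors' p-values, were not used as results. The tables call the groups 1 and 2, and group 1 was taken as siNT because the paper defines the difference as siNT minus siSFSWAP, which held in 100% of events within 0.002. The letters a, b and c follow the order of the lists, which pairs nothing. Reads that map to several near-identical genes, and strand, cannot be followed in these tables.

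The main test per event was a quasi-binomial F test (two-sided), with dispersion moderated by limma 3.58.1 (squeezeVar, R 4.3.3), floored at 1 and adjusted by Benjamini-Hochberg over the whole table. Events entered it with a mean of 20 reads or more, at least 5 reads of each form and reads in at least 2 libraries of each group. Junction reads were also summed per gene, scaled to the library total (CPM) and tested with limma on log2(CPM + 0.5). This replaced the count model first planned for gene sums, which was not run. Exon and intron numbers are from GENCODE release 44, and sequences from its GRCh38 genome. Events named are the called ones and, within each complex, up to 3 uncalled events with the largest change and no overlap of groups and up to 2 highly retained introns, at a mean of at least 50 reads, with the event of largest change in the other table. An event that this rule also names is not reported here. Of gene sums, called genes are named. Other events given, such as further introns of a named gene, were chosen after their values were seen. The members and the lists were chosen with earlier results of these data known.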

Additional observations from a re-analysis of the deposited data

How the results depend on the processing

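The main counts were 2 introns lower and none higher, 9 exon events higher and 3 lower, and 18 genes higher and 24 lower. Leaving out 1 library at a time gave 0 to 9 introns lower, 0 to 1 higher, 4 to 16 exon events higher, 1 to 7 lower, 11 to 27 genes higher and 9 to 43 lower. The highest counts of introns, of exon events called higher and of genes came without siNT library a. Limma on log2 odds called 0 introns lower, 0 exon events higher and 1 lower. With a change of 10 points in place of 20, 4 introns were lower, 15 exon events higher and 11 lower. A minimum of 50 reads, or inclusion without effective lengths, each left 1 exon event lower. The log2 change of SFSWAP lay between -1.58 and -1.23 when 1 library was left out. Gene sums scaled by median-of-ratios size factors, or tested with limma voom, both chosen after seeing the data, gave 18 and 14 genes higher and 28 and 18 lower.

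Over the fits with 1 library left out, 5 uncalled introns changed sign. The INTS8 intron ranged from -5.07 (without siSFSWAP library c) to 6.74 points, the POLR1H intron from -0.55 (the same) to 1.81 with -0.31 without siNT library c, POLR1A intron 10 from -1.44 (without siSFSWAP library c) to 1.84, TAF1C intron 8 from -1.62 (the same) to 9.74, and TAF1D intron 4 from -1.81 (without siSFSWAP library b) to 4.49. None of these was called in any of those fits, and the cause was not tested. Over the 14 called events named, the call held in 85 alternative fits and was lost in 53. No paired analysis was possible because the tables carry no replicate numbers. Not run were the count models planned as the main test and an alternative for gene sums and as an alternative to the quasi-binomial test for events. The median tested member had 59.0 to 190.0 reads per library, which limits the precision of each inclusion value.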
